A study of Gallus gallus with 6 samples.

Results

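The genes described here encode the respiratory chain and the ATP synthase of the mitochondrion, together with factors that assemble them. They were found as probe sets whose single gene symbol starts with NDUF, UQCR, ATP5 or COX plus a digit, or is SDHA, SDHB, SDHC, SDHD or CYC1, and the brightest probe set over the 6 arrays stood for each gene. This gave 83 genes with 146 probe sets, of 13009 genes and 38439 probe sets in all. The rule used no difference between groups. The 83 genes comprise 33 subunits of complex I (6 core and 27 accessory), 2 of complex II, 8 of complex III, 9 of complex IV, 13 of the ATP synthase, and 18 assembly factors that carry one of these symbols. Other genes of these complexes, the subunits encoded by mitochondrial DNA among them, were not analysed here.

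The respiratory chain passes electrons from NADH and succinate through complexes I and II to ubiquinone, then through complex III and cytochrome c to complex IV, where oxygen is reduced. Complexes I, III and IV pump protons across the inner mitochondrial membrane, and the ATP synthase uses the returning protons to make ATP. An oocyte gathers a large stock of mitochondria while it grows and passes it on to the embryo, and in granulosa cells mitochondria also hold the first step of steroid synthesis.

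The tissue came from ISA Brown laying hens aged 60 weeks, with 3 groups of 2 arrays each. They were germinal disc regions taken from the oocyte once ovulated (Ov GDR), those of the F1 follicle (F1 GDR), and granulosa cells of the F1 follicle (F1 GCs), the F1 follicle being the largest one before ovulation. The germinal disc is the small white area of the yolky egg cell that holds its nucleus and most of its cytoplasm. A pool of 25 hens gave the RNA of an array. Within a group the arrays, whose labels differ by the suffix A, were described in the methods as separate pools. By the same methods the F1 GDR still carried some granulosa cells and the Ov GDR none, so a value for either region is that of a dissected tissue, in which fewer cells of a type and less RNA per cell cannot be told apart.

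Values are deposited log2 gcrma values, so a difference of 1 is a change of 2 times, and levels are compared for 1 probe set at a time. The Ov GDR array without suffix stood apart in RNA quality. Its 3′ minus 5′ log2 difference was 5.02 for the actin control and 4.51 for the ef1α control, against 1.53 to 3.57 and 1.09 to 3.10 on the other 5 arrays. The 15 granulosa markers averaged 5.73 and 5.77 in Ov GDR, 8.51 and 7.96 in F1 GDR, and 8.89 and 8.82 in F1 GCs, and INHA, NR5A2 and CYP19A1 were at the background of control sequences (trp controls counted) on both Ov GDR arrays, CYP19A1 also on the other 4. The 15 oocyte markers averaged 4.66 and 5.21 in Ov GDR, 4.73 and 4.93 in F1 GDR, and 3.01 and 2.77 in F1 GCs, with DDX4 and BMP15 at background on all 6 arrays, NOBOX on those of Ov GDR, and MOS, ZAR1L and KPNA7 on those of F1 GCs. Called lower were 5 granulosa markers in Ov GDR against F1 GDR and 8 in Ov GDR against F1 GCs, where 3 were higher, and in F1 GDR against F1 GCs 2 were higher and 2 lower. Of the oocyte markers 0, 7 and 8 were higher and 1, 0 and 0 lower in Ov GDR minus F1 GDR, F1 GDR minus F1 GCs and Ov GDR minus F1 GCs, the lower one being NOBOX. Over all genes 0.2%, 4.34% and 10.1% were higher and 3.05%, 3.34% and 12.2% lower, in the same order. Among markers of other cell types 1 of 12 of the theca and stroma (COL1A2) and 1 of 9 of immune cells (CD74) were called. Both were at background on both Ov GDR arrays, at least 4.06-fold and 85.0-fold lower than F1 GCs. CD74 was also at least 37.9-fold lower than F1 GDR. On both F1 GCs arrays 7 of the 9 immune markers and 4 of the 12 theca and stroma markers were at background. None of 8 blood and endothelial and 0 of 11 muscle markers were called. Markers of striated muscle, a tissue rich in mitochondria, averaged 3.31 and 3.14 in Ov GDR, 3.21 and 3.37 in F1 GDR, and 3.18 and 3.13 in F1 GCs. The part of RNA quality and of cell content in the differences below was not tested.

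Most of the 83 genes were well detected, with 74 above the background of control sequences on all 6 arrays. Their median level was 8.79 and 8.54 in Ov GDR, 8.98 and 9.21 in F1 GDR, and 8.82 and 8.81 in F1 GCs. The 2 arrays of a group differed by over 1 log2 unit for 11 genes in Ov GDR, 1 gene in F1 GDR and 0 genes in F1 GCs. Of those 11 genes, 7 were lower on the Ov GDR array without suffix.

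**Figure D1:**
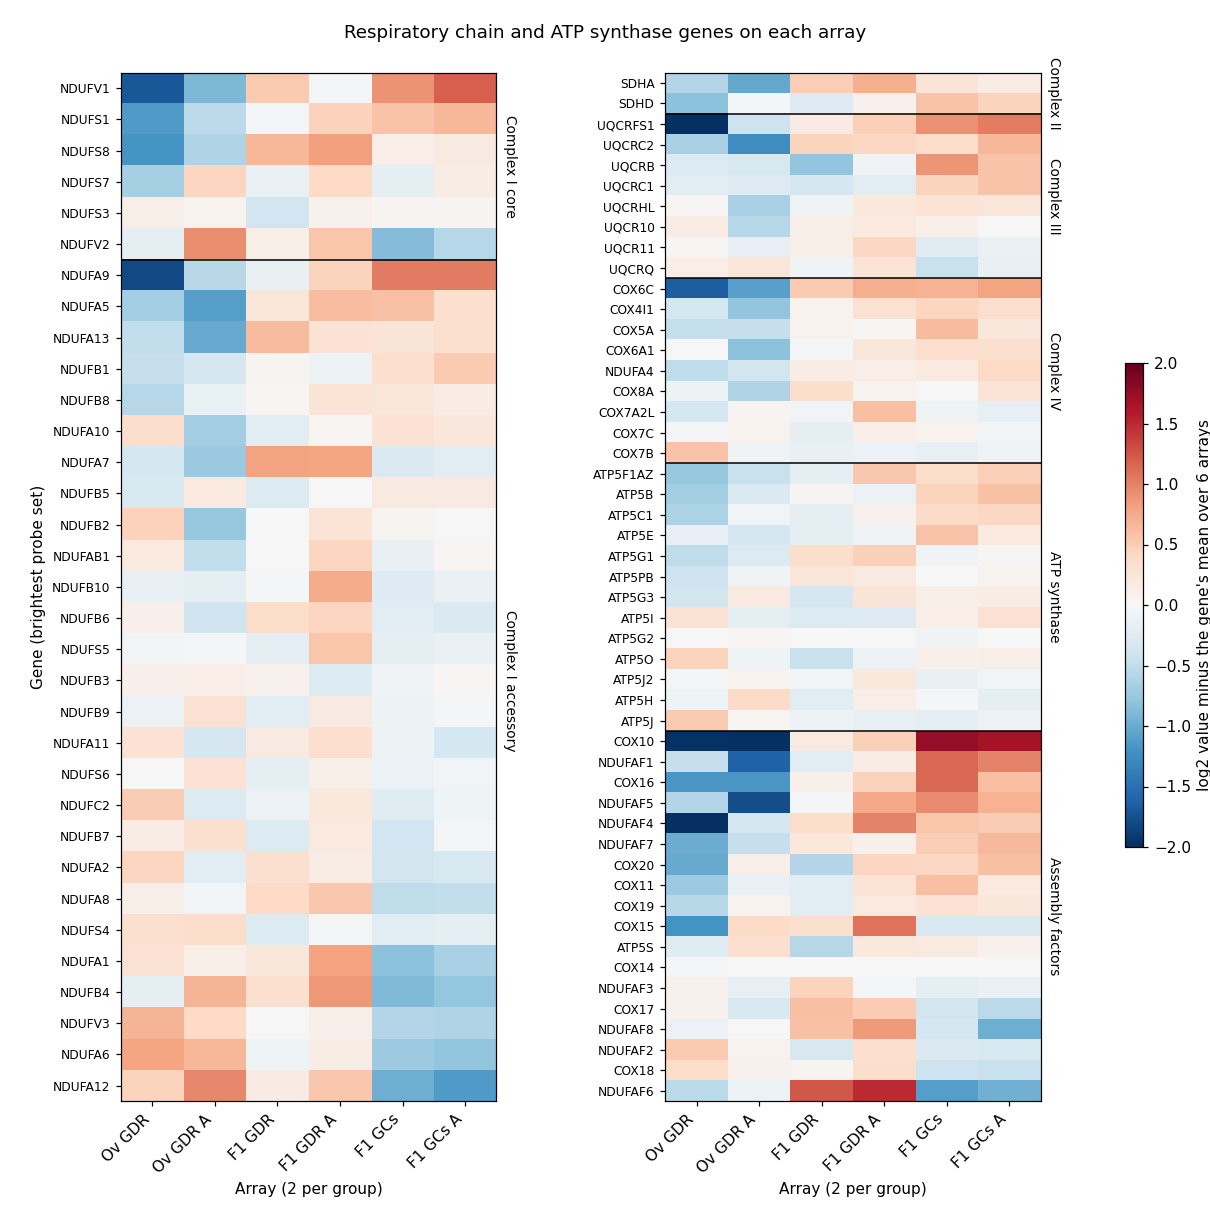
Level of each of the 83 genes (rows, grouped by complex or role and ordered within a group by the Ov GDR minus F1 GCs difference) on each of the 6 arrays (columns), as the log2 value minus the gene's mean over the arrays. The ordering itself puts blue cells of the Ov GDR columns at the top of groups. COX10 is lowest there, whereas on the deposited scale NDUFA12, NDUFA6 and NDUFV3 at the foot of complex I run the other way.

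Genes were compared between groups with limma over all probe sets, and a call required a Benjamini-Hochberg adjusted p under 0.05. In Ov GDR against F1 GDR, 0 of the 83 genes were higher and 2 were lower. Over all probe sets 0.234% were called higher and 1.63% lower in that comparison, and over the brightest probe set of every gene 0.2% higher and 3.05% lower. At an unadjusted p under 0.05 limma gave 2 genes higher and 24 lower, while 2932 of all 13009 genes had such a p in either direction. A plain t-test, with its own variance for each probe set, gave 0 in either direction after adjustment. It stood in for the methods' test, which shares variances between genes and was not run. The median difference of the 83 genes was -0.35, against 0.04 for all genes and -0.17 for the 7252 genes with a mean of at least 4 in some group. The 74 of the 83 genes past that filter had a median of -0.37. Of these 74, 2.7% were lower, against 5.39% of the 7252 genes, and 0% were higher, against 0.152%.

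In F1 GDR against F1 GCs, 4 genes were higher and 0 were lower, where 2.1% of all probe sets were called higher and 3.09% lower, and 4.34% and 3.34% of all genes. At an unadjusted p under 0.05 limma gave 12 genes higher and 6 lower, while 3497 of all 13009 genes had such a p in either direction. The plain t-test gave 0 after adjustment. The median difference was 0.03, which equals that of all genes to 2 decimals. With a mean of at least 4 in some group it was 0.05, against 0.14 for all such genes. Past that filter 5.41% of the respiratory chain and ATP synthase genes were higher, against 7.58% of all. None was lower, against 5.43% of all. In Ov GDR against F1 GCs, 3 genes were higher and 13 were lower, where 6.51% of all probe sets were called higher and 8.54% lower, and 10.1% and 12.2% of all genes. The 13 lower genes make 15.7% of the 83, against 12.2% of all genes, and the 3 higher genes make 3.61%, against 10.1%. Among genes with a mean of at least 4 in some group 17.6% of the respiratory chain and ATP synthase genes were lower, against 20.8% of all, and 4.05% were higher, against 15.3% of all. The median difference was -0.18, against 0.08 for all genes. With a mean of at least 4 in some group it was -0.24, against -0.0026 for all such genes. The shares of complexes and lists below are set against all genes, dim ones included. Past the filter the shares of all genes were larger, except for higher calls in Ov GDR minus F1 GDR. In Ov GDR minus F1 GCs 5395 of all 13009 genes had an unadjusted p under 0.05. Past the filter 2181, 3153 and 4027 of the 7252 genes had one in Ov GDR minus F1 GDR, F1 GDR minus F1 GCs and Ov GDR minus F1 GCs. The unadjusted counts of complexes and lists below are to be read beside these. The 3 comparisons share their groups, so they are given side by side and not as support for each other.

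These directions hold on the scale of the deposited values, in which all arrays have nearly the same distribution. With the arrays set to equal means of ACTB, GAPDH and EEF1A1, the reporter genes of the study, the median of the 83 genes became 0.10 in Ov GDR minus F1 GDR, 0.0037 in F1 GDR minus F1 GCs and 0.25 in Ov GDR minus F1 GCs. The same shift moved the median of all probe sets to 0.51, -0.01 and 0.50, against 0.05, 0.01 and 0.07 as deposited. The mean of the reporter genes was 11.53 on the Ov GDR array without suffix, 12.39 on Ov GDR A, and 12.36 to 12.44 on the F1 arrays. The shift thus falls mainly on the Ov GDR array without suffix, the one with the large 3′ minus 5′ differences. On this scale 1, 4 and 6 genes were called higher and 2, 0 and 6 lower, in the same order of comparisons. Of the 16 genes called in Ov GDR minus F1 GCs as deposited, 7 kept their call on this scale. Among the lower genes these were COX10, COX6C, NDUFV1 and NDUFAF1, while NDUFA9 and UQCRFS1 were newly called lower. The lower calls of NDUFS1, NDUFB1, UQCRC1, UQCRC2, COX4I1, NDUFA4, ATP5B, COX16 and NDUFAF7 were lost. Set to equal hybridization controls, an alternative chosen after the data were seen, 0, 2 and 0 genes were called higher and 54, 26 and 69 lower, with the median of all probe sets at -0.74, -0.57 and -1.30. Of all called probe sets, 12.6%, 40.5% and 43.2% were higher as deposited, against 54.0%, 44.9% and 57.3% on the reporter scale and 0.719%, 4.69% and 2.38% on the hybridization control scale. The median of the 83 genes minus that of all probe sets is -0.41, 0.02 and -0.25 on each of these 3 scales. It cannot change, because each rescaling subtracts the same amount from all values of an array, so its constancy is no result. All probe sets had a median level of 2.79 to 2.90 on the arrays, far under that of the 83 genes.

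**Figure D2:**
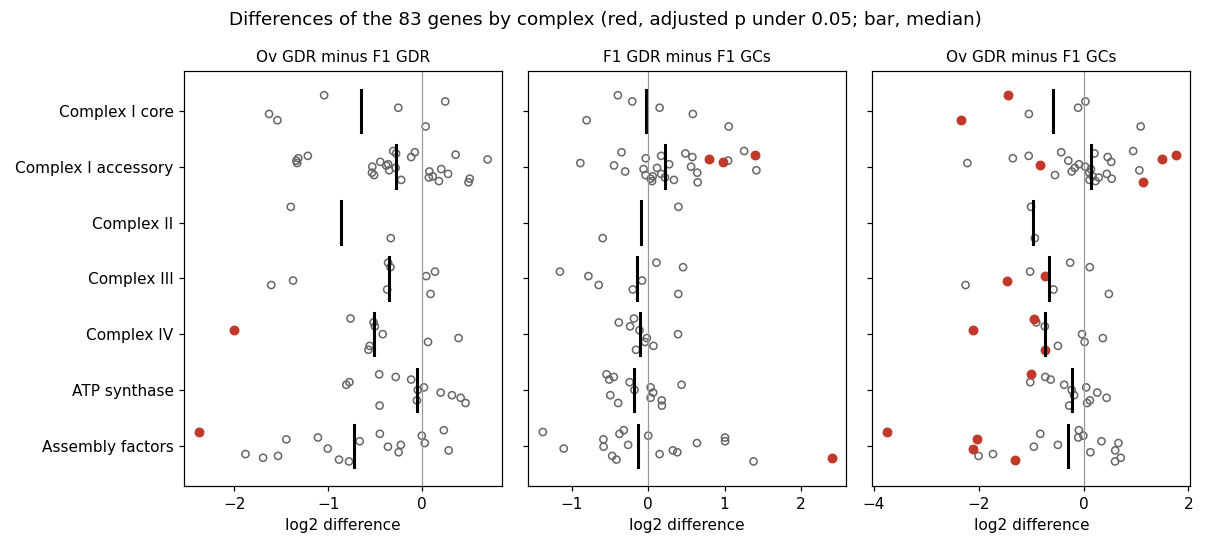
Log2 difference of each of the 83 genes in the 3 comparisons, by complex or role (open circles, not called; red, adjusted p under 0.05; black bar, median of the group). Complex IV and the core of complex I lie mostly left of 0 in Ov GDR minus F1 GCs, with medians of -0.73 and -0.58, whereas complex I accessory subunits have a median of 0.14 there.

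The core subunits of complex I carry the flavin and the iron-sulfur clusters that take electrons from NADH to ubiquinone. Of the 6 measured, 2 were lower in Ov GDR than F1 GCs, 33.3% against 12.2% of all genes. None was called in the other 2 comparisons, in which 3 and 0 had an unadjusted p under 0.05. NDUFV1, which binds NADH and the flavin, read 5.65 and 6.44 in Ov GDR, 7.87 and 7.31 in F1 GDR, and 8.25 and 8.55 in F1 GCs. No group overlapped another, and Ov GDR was 5.08-fold lower than F1 GCs (log2 difference -2.35 ± 0.41, SE; adjusted p = 0.028). NDUFS1, the largest subunit with several of the clusters, read 7.58 and 8.20 in Ov GDR, 8.69 and 9.18 in F1 GDR, and 9.29 and 9.38 in F1 GCs. It followed the same order and was 2.72-fold lower in Ov GDR than F1 GCs (-1.44 ± 0.31, adjusted p = 0.0473). NDUFS8, which holds a pair of clusters near the ubiquinone site, had 7.27 and 7.84 in Ov GDR, 9.11 and 9.26 in F1 GDR, and 8.58 and 8.62 in F1 GCs, and its differences did not pass (adjusted p of 0.0757 against F1 GDR and 0.0704 against F1 GCs). The partner of NDUFV1 at the NADH site did not follow it. NDUFV2 read 8.86 and 9.97 in Ov GDR, 9.16 and 9.60 in F1 GDR, and 8.18 and 8.47 in F1 GCs, with a log2 difference of 1.09 ± 0.43 between Ov GDR and F1 GCs that was not called (adjusted p = 0.152).

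Accessory subunits surround the core of complex I and are needed for its assembly or stability. Of the 27 measured, 3 were higher and 0 lower in F1 GDR than F1 GCs, and 3 were higher and 1 lower in Ov GDR than F1 GCs. The higher ones make 11.1% in each, against 4.34% and 10.1% of all genes, and the lower one 3.7%, against 12.2%. None was called between Ov GDR and F1 GDR, where 8 had an unadjusted p under 0.05. Group medians were -0.28 for Ov GDR minus F1 GDR, 0.22 for F1 GDR minus F1 GCs and 0.14 for Ov GDR minus F1 GCs.

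NDUFA6, an accessory subunit of the LYR motif family, was the most even of these. It read 11.15 and 11.03 in Ov GDR, 10.29 and 10.51 in F1 GDR, and 9.64 and 9.57 in F1 GCs. The 3 groups did not overlap and formed steps of 0.69 and 0.79. Ov GDR was 2.80-fold higher than F1 GCs (1.49 ± 0.12, adjusted p = 0.00536), and F1 GDR was 1.73-fold higher than F1 GCs (0.79 ± 0.12, adjusted p = 0.0432), whereas the step between Ov GDR and F1 GDR was not called (adjusted p = 0.0886). The difference between Ov GDR and F1 GCs stayed between 1.43 and 1.55 with each array left out in turn. On the hybridization control scale described above neither difference from F1 GCs was called. On the reporter scale the one of F1 GDR was not called.

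NDUFA12 lies near the junction of the peripheral arm. Its brightest probe set read 11.55 and 12.05 in Ov GDR, 11.25 and 11.64 in F1 GDR, and 10.12 and 9.97 in F1 GCs. Both disc regions were above F1 GCs and overlapped each other. Ov GDR was 3.38-fold higher than F1 GCs (1.76 ± 0.22, adjusted p = 0.0129) and F1 GDR was 2.65-fold higher (1.40 ± 0.22, adjusted p = 0.0442). On the hybridization control scale the call of Ov GDR was lost and that of F1 GDR remained. The other 2 probe sets of NDUFA12 stayed between 2.38 and 2.90 on the 6 arrays, near background, with differences between F1 GDR and F1 GCs of -0.02 and -0.09.

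NDUFV3 is a small subunit attached to the NADH-oxidizing part that NDUFV1 and NDUFV2 form. It read 10.04 and 9.75 in Ov GDR, 9.35 and 9.45 in F1 GDR, and 8.76 and 8.75 in F1 GCs. Ov GDR was 2.20-fold higher than F1 GCs (1.14 ± 0.17, adjusted p = 0.0191), the opposite direction to NDUFV1, but its difference was -0.23 and not called on the hybridization control scale. NDUFA8, a protein with paired cysteines in the intermembrane space, peaked in F1 GDR. It read 9.85 and 9.67 in Ov GDR, 10.13 and 10.28 in F1 GDR, and 9.23 and 9.24 in F1 GCs, and F1 GDR was 1.96-fold higher than F1 GCs (0.97 ± 0.14, adjusted p = 0.0373). This call was lost on both the reporter scale and the hybridization control scale.

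The accessory subunit called lower was NDUFB1 of the membrane arm. It read 9.34 and 9.46 in Ov GDR, 9.86 and 9.71 in F1 GDR, and 10.14 and 10.32 in F1 GCs, and Ov GDR was 1.78-fold lower than F1 GCs (-0.83 ± 0.14, adjusted p = 0.028). Some larger differences went uncalled. NDUFA9, which sits near the ubiquinone site, read 6.02 and 7.27 in Ov GDR, 7.67 and 8.28 in F1 GDR, and 8.86 and 8.87 in F1 GCs, with a difference of -2.22 ± 0.50 between Ov GDR and F1 GCs (adjusted p = 0.0531). NDUFA7 read 9.16 and 8.77 in Ov GDR, 10.32 and 10.29 in F1 GDR, and 9.21 and 9.30 in F1 GCs. It stood highest in F1 GDR by 1.34 over Ov GDR and by 1.05 over F1 GCs, just outside the threshold on both sides (adjusted p = 0.0536 against Ov GDR and 0.0541 against F1 GCs).

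NDUFS4 was, after NDUFA6, the gene with the largest positive difference between Ov GDR and F1 GDR whose groups did not overlap. It read 5.80 and 5.84 in Ov GDR, 5.20 and 5.44 in F1 GDR, and 5.27 and 5.30 in F1 GCs, and its difference of 0.50 ± 0.25 was not called (adjusted p = 0.327). Other accessory subunits were nearly level. NDUFB3 spanned 0.40 log2 units over the 6 arrays and NDUFS6 0.48, 2 of the 3 smallest ranges among genes above background on every array. NDUFS6 read 10.07 and 10.37 in Ov GDR, 9.90 and 10.20 in F1 GDR, and 9.97 and 10.03 in F1 GCs.

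Complex II oxidizes succinate and is also an enzyme of the citric acid cycle. Neither of its 2 measured genes was called in any comparison, with 1, 0 and 2 at an unadjusted p under 0.05 in Ov GDR minus F1 GDR, F1 GDR minus F1 GCs and Ov GDR minus F1 GCs. SDHA, the flavin-bearing catalytic subunit, read 8.07 and 7.64 in Ov GDR, 9.15 and 9.36 in F1 GDR, and 8.91 and 8.81 in F1 GCs. Both Ov GDR arrays were below the other 4, with differences of -1.40 ± 0.24 from F1 GDR (adjusted p = 0.0803) and -1.003 ± 0.24 from F1 GCs (adjusted p = 0.0588). SDHD, a membrane anchor, read 8.52 and 9.31 in Ov GDR, 9.08 and 9.42 in F1 GDR, and 9.91 and 9.78 in F1 GCs. Its difference of -0.93 ± 0.32 between Ov GDR and F1 GCs was not called (adjusted p = 0.119).

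Complex III hands electrons from ubiquinol to cytochrome c. Of its 8 genes, both core proteins were lower in Ov GDR than F1 GCs, 25% against 12.2% of all genes. No gene was called elsewhere. In Ov GDR against F1 GDR and in F1 GDR against F1 GCs, 1 and 3 had an unadjusted p under 0.05. UQCRC1 read 9.16 and 9.11 in Ov GDR, 9.03 and 9.15 in F1 GDR, and 9.81 and 9.94 in F1 GCs. Both disc regions overlapped below F1 GCs, and Ov GDR was 1.67-fold lower than F1 GCs (-0.74 ± 0.15, adjusted p = 0.0402). UQCRC2 read 7.70 and 7.11 in Ov GDR, 8.80 and 8.77 in F1 GDR, and 8.72 and 9.01 in F1 GCs. Here F1 GDR overlapped F1 GCs instead, and Ov GDR was 2.74-fold lower than F1 GCs (-1.46 ± 0.29, adjusted p = 0.0389). A second UQCRC2 probe set gave a difference of -2.35 that was not called, and the dimmest, at 3.02 to 3.30, gave 0.10.

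UQCRFS1, the Rieske iron-sulfur protein, had the widest spread of complex III. It read 6.27 and 8.03 in Ov GDR, 8.59 and 8.92 in F1 GDR, and 9.35 and 9.46 in F1 GCs. The groups did not overlap, but the Ov GDR arrays differed by 1.76, the widest gap of any of the 83 genes, and the difference of -2.25 ± 0.62 from F1 GCs was not called (adjusted p = 0.0796). UQCRB, a small subunit near the ubiquinone site, read 4.22 and 4.17 in Ov GDR, 3.70 and 4.42 in F1 GDR, and 5.37 and 5.06 in F1 GCs, so that F1 GCs stood above both disc regions without a call (-1.02 ± 0.31 for Ov GDR minus F1 GCs, adjusted p = 0.0989). UQCRHL, a hinge protein, read 10.46 and 9.79 in Ov GDR, 10.35 and 10.65 in F1 GDR, and 10.71 and 10.69 in F1 GCs. The small subunits UQCR10, UQCR11 and UQCRQ had differences between -0.36 and 0.48 in the 3 comparisons, and none was called. UQCRQ read 9.07 and 9.18 in Ov GDR, 8.87 and 9.21 in F1 GDR, and 8.49 and 8.79 in F1 GCs.

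Complex IV passes electrons from cytochrome c to oxygen. Of the 9 genes, 1 was lower in Ov GDR than F1 GDR and 3 were lower in Ov GDR than F1 GCs. These make 11.1% and 33.3%, against 3.05% and 12.2% of all genes. None was called between F1 GDR and F1 GCs, where 0 had an unadjusted p under 0.05. COX6C, a small subunit of the membrane part, read 9.05 and 9.62 in Ov GDR, 11.23 and 11.44 in F1 GDR, and 11.40 and 11.50 in F1 GCs. Both Ov GDR arrays lay over 1 log2 unit below all others, and F1 GDR overlapped F1 GCs. Ov GDR was 3.995-fold lower than F1 GDR (-1.998 ± 0.21, adjusted p = 0.0314) and 4.32-fold lower than F1 GCs (-2.11 ± 0.21, adjusted p = 0.00772). A second, dimmer COX6C probe set was at background on both Ov GDR arrays and at least 4.25-fold lower there than in F1 GCs (trp controls counted in the background, adjusted p = 0.00935).

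COX4I1, a nucleus-encoded subunit that binds adenine nucleotides, read 10.39 and 9.96 in Ov GDR, 10.82 and 11.06 in F1 GDR, and 11.17 and 11.08 in F1 GCs. It was 1.93-fold lower in Ov GDR than F1 GCs (-0.95 ± 0.18, adjusted p = 0.0346). NDUFA4, named for complex I but found in complex IV in mammals, read 10.73 and 10.88 in Ov GDR, 11.39 and 11.37 in F1 GDR, and 11.44 and 11.64 in F1 GCs. It was 1.66-fold lower in Ov GDR than F1 GCs (-0.73 ± 0.10, adjusted p = 0.0158), with no overlap between any of the groups. COX7C was the steadiest gene above background, with a range of 0.34 over the 6 arrays, and read 10.02 and 10.11 in Ov GDR, 9.84 and 10.17 in F1 GDR, and 10.11 and 9.98 in F1 GCs. Its second probe set, at 2.91 to 3.39, was called higher in Ov GDR than F1 GCs by 0.45 (adjusted p = 0.0401). COX7B was at background on every array.

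The ATP synthase pairs a catalytic head with a membrane rotor, a ring of c subunits. Of its 13 genes, 1 was lower in Ov GDR than F1 GCs and 12 were not called. The lower gene makes 7.69%, against 12.2% of all genes. In the other 2 comparisons 0 were called, and 3 and 2 had an unadjusted p under 0.05. ATP5B, the catalytic β subunit, read 9.46 and 9.86 in Ov GDR, 10.20 and 10.03 in F1 GDR, and 10.59 and 10.74 in F1 GCs. Ov GDR was 2.01-fold lower than F1 GCs (-1.004 ± 0.18, adjusted p = 0.0299). The α subunit gene ATP5F1AZ, whose probe set may also read the near-identical copy on the W chromosome, had 8.82 and 9.13 in Ov GDR, 9.38 and 10.11 in F1 GDR, and 9.94 and 10.04 in F1 GCs, and its difference of -1.02 between Ov GDR and F1 GCs was not called (adjusted p = 0.0864). ATP5C1, the γ subunit that turns in the head, had 9.36 and 9.94 in Ov GDR, 9.79 and 10.08 in F1 GDR, and 10.37 and 10.40 in F1 GCs on its brightest probe set, which was not called. Its dimmer probe set read 2.61 and 2.597 in Ov GDR, 3.35 and 3.13 in F1 GDR, and 4.89 and 4.51 in F1 GCs, with both Ov GDR values at background. It was at least 2.94-fold lower in Ov GDR than F1 GCs (adjusted p = 0.00588), and F1 GDR was lower than F1 GCs (-1.46, adjusted p = 0.0315).

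The c subunit comes from 3 genes that encode the same mature protein. ATP5G1 read 8.84 and 9.08 in Ov GDR, 9.70 and 9.84 in F1 GDR, and 9.29 and 9.38 in F1 GCs. The 3 groups did not overlap, with F1 GDR on top, and neither its difference of -0.81 ± 0.17 between Ov GDR and F1 GDR (adjusted p = 0.118) nor the others were called. ATP5G3 read 10.99 and 11.54 in Ov GDR, 11.004 and 11.62 in F1 GDR, and 11.47 and 11.51 in F1 GCs, with all groups overlapping. ATP5G2 stayed between 2.68 and 2.78.

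Assembly factors insert cofactors or build intermediates and are not part of the finished complexes. The 18 among these genes had medians of -0.72 for Ov GDR minus F1 GDR, -0.13 for F1 GDR minus F1 GCs and -0.30 for Ov GDR minus F1 GCs. Of them 1 was lower in Ov GDR than F1 GDR, 1 was higher in F1 GDR than F1 GCs, and 4 were lower in Ov GDR than F1 GCs. These make 5.56%, 5.56% and 22.2% of the 18, against 3.05%, 4.34% and 12.2% of all genes. Among all genes with a mean of at least 4 in some group the shares were 5.39%, 7.58% and 20.8%. COX10, which makes the heme O from which the heme A of complex IV is formed, had the largest difference of all 83 genes. It read 3.09 and 2.96 in Ov GDR, 5.25 and 5.55 in F1 GDR, and 6.82 and 6.74 in F1 GCs. The groups formed 3 separate steps, and Ov GDR was 5.19-fold lower than F1 GDR (-2.38 ± 0.24, adjusted p = 0.0289) and 13.5-fold lower than F1 GCs (-3.76 ± 0.24, adjusted p = 0.00345). The other COX10 probe sets, at 2.38 to 2.84, gave -0.02 and -0.11 against F1 GDR. Against F1 GCs they gave -0.12 and -0.23, and none of these was called.

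The Ov GDR value of COX10 lay under the background of 3.27 on the array without suffix and above that of 2.68 on array A. With the trp control probe sets counted, the background of array A is 3.01, both Ov GDR values lie under it, and Ov GDR was then at least 4.79-fold lower than F1 GDR and at least 12.5-fold lower than F1 GCs. The step between F1 GDR and F1 GCs was -1.38 ± 0.24 (adjusted p = 0.0526). The difference between Ov GDR and F1 GCs stayed between -3.82 and -3.69 with each array left out in turn. COX10 was the only one of the 83 genes that the plain t-test still called after Benjamini-Hochberg adjustment.

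COX16, which acts in the assembly of complex IV, read 4.52 and 4.52 in Ov GDR, 5.79 and 6.15 in F1 GDR, and 6.83 and 6.28 in F1 GCs. It was 4.09-fold lower in Ov GDR than F1 GCs (-2.03 ± 0.32, adjusted p = 0.0228). NDUFAF1, part of the machinery that builds the membrane arm of complex I, read 7.20 and 6.06 in Ov GDR, 7.45 and 7.82 in F1 GDR, and 8.82 and 8.66 in F1 GCs. It was 4.32-fold lower in Ov GDR than F1 GCs (-2.11 ± 0.46, adjusted p = 0.0473). NDUFAF7, a methyltransferase that modifies a core subunit of complex I, read 3.31 and 3.83 in Ov GDR, 4.51 and 4.40 in F1 GDR, and 4.79 and 4.95 in F1 GCs, and was 2.46-fold lower in Ov GDR than F1 GCs (-1.30 ± 0.25, adjusted p = 0.0355). The other NDUFAF7 probe set, at 2.92 to 3.41, gave a difference of 0.30 that was not called.

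NDUFAF6, another complex I assembly factor, peaked in F1 GDR. It read 4.07 and 4.50 in Ov GDR, 5.85 and 6.10 in F1 GDR, and 3.50 and 3.65 in F1 GCs. F1 GDR was 5.29-fold higher than F1 GCs (2.40 ± 0.25, adjusted p = 0.027), and its excess over Ov GDR did not pass (Ov GDR minus F1 GDR of -1.69 ± 0.25, adjusted p = 0.0617). COX14 stayed at 2.24 to 2.28 on all arrays, at background.

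**Figure D3:**
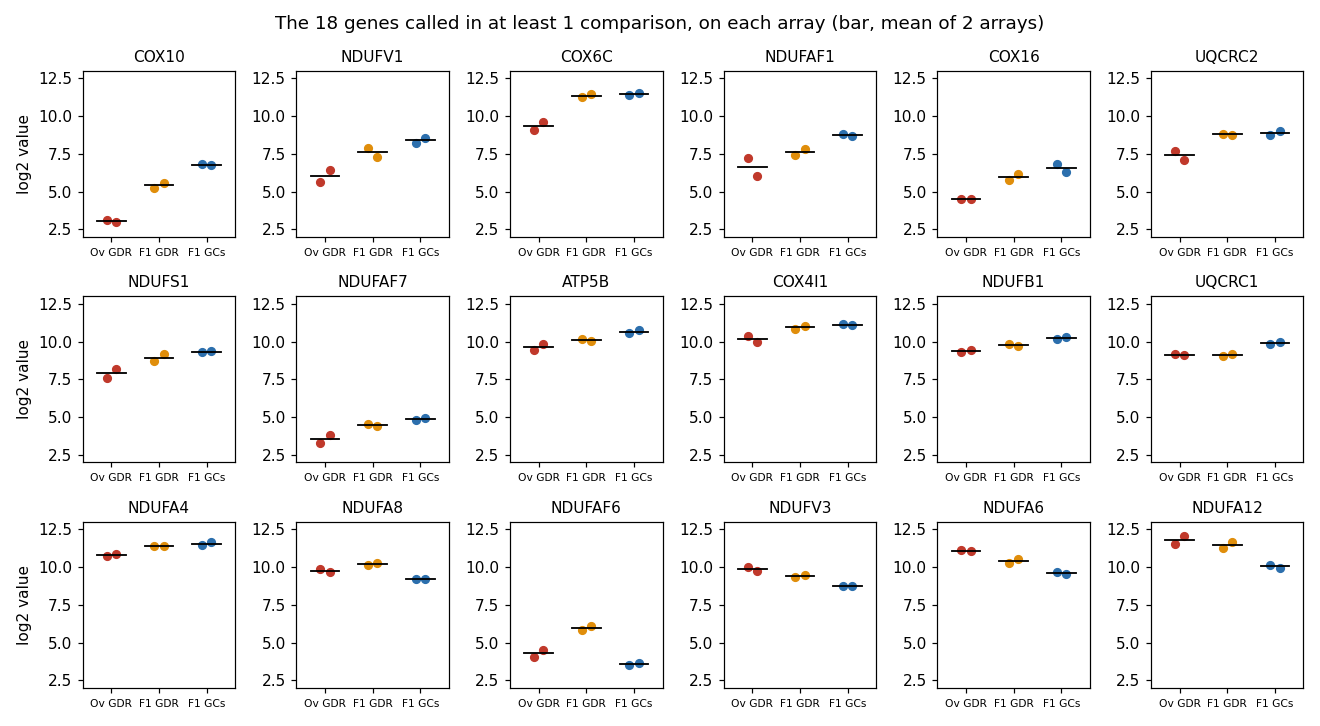
Log2 value on each array (points, 2 per group) of the 18 genes called in at least 1 comparison, ordered from the most negative to the most positive Ov GDR minus F1 GCs difference, with the mean of each group as a bar. COX10 and NDUFV1 step up from Ov GDR through F1 GDR to F1 GCs, COX6C is low in Ov GDR alone, NDUFAF6 and NDUFA8 are highest in F1 GDR, and on the deposited scale NDUFV3, NDUFA6 and NDUFA12 step down.

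In all, 18 of the 83 genes were called in at least 1 comparison and 65 in none. COX10 and COX6C were called in both comparisons of Ov GDR, and NDUFA6 and NDUFA12 in both comparisons with F1 GCs. By group means alone, 29 genes increased from Ov GDR through F1 GDR to F1 GCs and 15 decreased in that order. F1 GDR had the highest mean for 29 genes and the lowest for 10. These orders count genes whose groups overlap too and were not tested.

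The calls rest on 2 arrays per group, for which an exact permutation test could not go below p = 0.333. They depended on which arrays gave the spread. Without the Ov GDR array with the large 3′ to 5′ differences, the median of the 83 genes was -0.32 in Ov GDR minus F1 GDR and -0.18 in Ov GDR minus F1 GCs. All probe sets had medians of 0.03 and 0.05. Without Ov GDR A the medians were -0.32 and -0.23, against 0.05 and 0.07 for all probe sets. With either array left out, more of all probe sets were called in these comparisons than with all 6 arrays, and most of those called were higher in Ov GDR. In these fits the lone Ov GDR array is assumed to vary like the other groups. Without either F1 GDR array, or either F1 GCs array, 0 genes were called between Ov GDR and F1 GDR or between F1 GDR and F1 GCs, and 2 to 4 between Ov GDR and F1 GCs. COX10 and NDUFA6 remained among these in all 4 fits. Of all probe sets, too, fewer were called in these fits than with all 6 arrays.

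Of the 63 further probe sets of these genes, 48 had means under 4 in every group, and 4 were called in some comparison, namely those of ATP5C1, COX6C and COX7C given above and one of NDUFS1. The second NDUFS1 probe set read 7.26 and 7.21 in Ov GDR, 7.86 and 8.40 in F1 GDR, and 8.94 and 9.09 in F1 GCs, and was lower in Ov GDR than F1 GCs as the first (-1.78, adjusted p = 0.021).

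Genes around the respiratory chain were taken from lists of known function. Of 30 further assembly factors measured, 0 were higher and 2 lower in Ov GDR than F1 GDR. In F1 GDR against F1 GCs 0 were higher and 1 lower, and in Ov GDR against F1 GCs 1 was higher and 4 lower. The lower ones make 6.67%, 3.33% and 13.3% of the list, against 3.05%, 3.34% and 12.2% of all genes. The higher one makes 3.33%, against 10.1%. SURF1, a complex IV factor that acts with heme A, read 3.80 and 3.51 in Ov GDR, 5.53 and 5.50 in F1 GDR, and 5.95 and 6.08 in F1 GCs. It was lower in Ov GDR than F1 GDR (-1.86 ± 0.24, adjusted p = 0.0449) and than F1 GCs (-2.36 ± 0.24, adjusted p = 0.00775). TMEM70, which serves the assembly of the ATP synthase, was lower than F1 GCs in Ov GDR (-2.56) and in F1 GDR (-1.49). TIMMDC1, a complex I factor, was lower in Ov GDR than F1 GCs by 2.28.

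Of 16 genes of the mobile electron carriers and of ubiquinone synthesis, 3 were higher and 0 lower in Ov GDR than F1 GCs, and 1 higher and 0 lower in F1 GDR than F1 GCs, where 10.1% and 4.34% of all genes were higher. The genes called all belong to ubiquinone synthesis. COQ3, a methyltransferase of ubiquinone synthesis, read 8.01 and 7.80 in Ov GDR, 7.40 and 7.62 in F1 GDR, and 5.77 and 5.38 in F1 GCs. It was higher than F1 GCs in Ov GDR (2.33 ± 0.29, adjusted p = 0.0128) and in F1 GDR (1.94 ± 0.29, adjusted p = 0.0411). COQ2 and COQ8A, of the same pathway, were higher in Ov GDR than F1 GCs by 1.21 and 1.37, against -0.16 and -0.0050 on the hybridization control scale.

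Of 15 genes of the citric acid cycle and pyruvate entry, 1 was higher and 2 were lower in Ov GDR than F1 GCs. They make 6.67% and 13.3% of the list, against 10.1% and 12.2% of all genes. IDH3A, the catalytic subunit of isocitrate dehydrogenase, was lower by 2.34, and SUCLG1, of succinyl-CoA ligase, by 1.78, while PC, at 2.19 to 2.31 on all arrays and thus at background, is the one called higher, which gives no fold. Of 12 genes of fatty acid oxidation, 0 were higher and 4 lower in Ov GDR than F1 GCs, among them ECI2 (-2.82), SLC25A20 (-1.66) and ACADL (-1.65). In F1 GDR against F1 GCs 0 were higher and 1 lower. The lower ones make 33.3% and 8.33% of the list, against 12.2% and 3.34% of all genes, where 10.1% and 4.34% were higher.

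Of 10 genes that carry or exchange nucleotides and phosphate, 2 were higher and 1 lower in Ov GDR than F1 GCs. In F1 GDR against F1 GCs 1 was higher and 1 lower. The first counts make 20% and 10% of the list, against 10.1% and 12.2% of all genes. The second make 10% each, against 4.34% and 3.34%. AK3, a matrix adenylate kinase that uses GTP, read 8.36 and 8.15 in Ov GDR, 7.85 and 8.59 in F1 GDR, and 4.05 and 3.41 in F1 GCs. Both disc regions overlapped far above F1 GCs, and the difference was 4.52 ± 0.41 for Ov GDR (adjusted p = 0.0064) and 4.49 ± 0.41 for F1 GDR (adjusted p = 0.0244). SLC25A6, an ADP/ATP carrier that supplies the ATP synthase with ADP, read 8.67 and 9.09 in Ov GDR, 10.53 and 10.04 in F1 GDR, and 12.24 and 12.15 in F1 GCs. It was lower than F1 GCs in Ov GDR (-3.31 ± 0.23, adjusted p = 0.0039) and in F1 GDR (-1.91 ± 0.23, adjusted p = 0.0305). VDAC3, an outer membrane channel, was higher in Ov GDR than F1 GCs by 1.198, against -0.17 on the hybridization control scale.

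Of 17 genes that maintain mitochondrial DNA or regulate nuclear genes for mitochondrial proteins, 3 were higher and 1 lower in Ov GDR than F1 GCs. In F1 GDR against F1 GCs 2 were higher and 1 lower. The first counts make 17.6% and 5.88% of the list, against 10.1% and 12.2% of all genes. The second make 11.8% and 5.88%, against 4.34% and 3.34%. PPRC1, a coactivator of the PGC-1 family, read 11.73 and 11.50 in Ov GDR, 10.24 and 9.42 in F1 GDR, and 6.70 and 6.54 in F1 GCs. The groups formed 3 steps, and PPRC1 was higher than F1 GCs in Ov GDR (5.00 ± 0.32, adjusted p = 0.00342) and in F1 GDR (3.21 ± 0.32, adjusted p = 0.0255). POLG2, the accessory subunit of the mitochondrial DNA polymerase, was higher than F1 GCs in Ov GDR (2.25) and in F1 GDR (1.94), and GABPA, a subunit of nuclear respiratory factor 2, was higher in Ov GDR by 0.86, against -0.51 on the hybridization control scale.

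Mitochondrial ribosomal proteins, which make the subunits encoded by mitochondrial DNA, numbered 67. Of these 5 were higher and 0 lower in F1 GDR than F1 GCs, and 7 higher and 0 lower in Ov GDR than F1 GCs. At an unadjusted p under 0.05 there were 19 and 20, against 3497 and 5395 of all 13009 genes. The higher calls make 7.46% and 10.4% of the list, against 4.34% and 10.1% of all genes. Among all genes with a mean of at least 4 in some group the higher shares were 7.58% and 15.3%. Their medians were -0.31 for Ov GDR minus F1 GDR, 0.50 for F1 GDR minus F1 GCs and 0.14 for Ov GDR minus F1 GCs, against 0.04, 0.03 and 0.08 for all genes. MRPS31 read 10.23 and 10.30 in Ov GDR, 9.25 and 9.80 in F1 GDR, and 7.98 and 8.01 in F1 GCs, and was higher than F1 GCs in Ov GDR (2.27) and in F1 GDR (1.53). MRPL18 was higher in Ov GDR by 2.03. MRPL43 read 6.34 and 5.71 in Ov GDR, 7.96 and 8.16 in F1 GDR, and 5.76 and 5.42 in F1 GCs, and was higher in F1 GDR than F1 GCs by 2.47 (adjusted p = 0.0367).

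**Figure D4:**
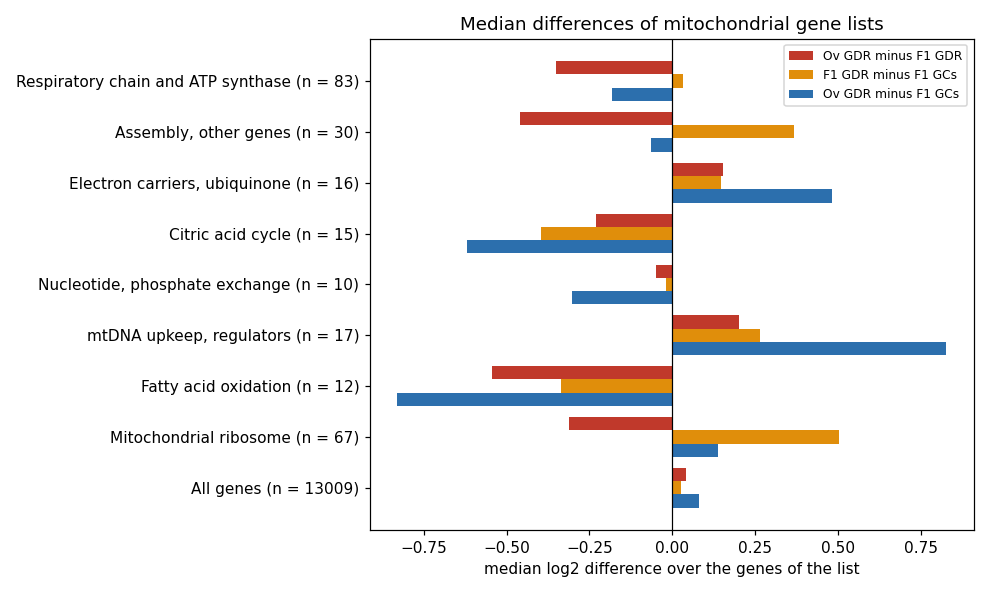
Median log2 difference of the 83 genes, of 7 lists of mitochondrial genes and of all genes in the 3 comparisons (bars, with the number of genes measured). The 83 genes lie at -0.35, 0.03 and -0.18, the medians of fatty acid oxidation, the citric acid cycle and nucleotide and phosphate exchange are negative in all 3 comparisons, and those of the regulators, of the electron carriers with ubiquinone synthesis and of all genes are positive in all 3.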

How the data were processed

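Each of the 6 Affymetrix chicken arrays carried amplified RNA of a pool of 25 hens. The deposited log2 values per probe set come from gcrma, run by the authors, and were used unscaled. Those of F1 GDR array A carry at most 2 decimals. gcrma gives all arrays nearly one distribution, so a change shared by most genes cannot be seen. No source used here gives the version of gcrma or the genome build behind the probe annotation. The labels state 14 h of light per day and the paper 15 h.

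The 96 Affymetrix control probe sets were left out. Of the 38439 others, 27168 carry 1 gene symbol in the platform annotation, 177 several and 11094 none, and 82 of the 83 genes were matched to RefSeq by gene ID, which changed 0 symbols. Background means, for each array, the top value among 17 controls for foreign sequences (23 with the trp probe sets, an alternative chosen after the data were seen).

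Differences were tested over all 6 arrays in limma 3.58.1 (R 4.3.3), with moderated variances, a mean-variance trend, 3 residual and 1.66 prior degrees of freedom, and Benjamini-Hochberg adjustment over all probe sets, tested on simulated data beforehand. The number of arrays limits the precision. The variance mixture test of the methods was not run, and a plain t-test stood in for it. The alternatives were no trend, 4 arrays only, the suffix as a block, a filter on means under 4 and scaling to reporter genes. Further ones were means over probe sets, the plain t-test, Bonferroni adjustment, differences of at least 1, and leaving out each array.

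Genes named are all of complexes II and III, then, of the other complexes and of the assembly factors, the called members with the largest differences, up to 4 per comparison and direction, or, where none was called, 2 with the largest difference and groups that do not overlap. Added to these are isoforms, genes at background on all arrays, the 3 steadiest genes, genes whose probe sets disagree in sign, and 3 called genes of each other list. NDUFS8, NDUFV2, NDUFA9, NDUFA7, ATP5F1AZ and ATP5C1 were named after their values were seen. The members and lists were chosen with earlier results of these data known.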

Additional observations from a re-analysis of the deposited data

How the results depend on the processing

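Counts are given for Ov GDR minus F1 GDR, then F1 GDR minus F1 GCs, then Ov GDR minus F1 GCs. Without the variance trend 4, 2 and 14 genes were lower and 0, 4 and 5 higher. With only the 4 arrays compared 0, 1 and 2 were lower. With a filter on means under 4 the counts were 7, 2 and 21 lower and 0, 9 and 4 higher. With the mean of all probe sets of a gene 5 were lower in Ov GDR minus F1 GDR. With a minimum log2 difference of 1, 2 genes were higher in F1 GDR minus F1 GCs. The plain t-test gave 0, 0 and 1 lower and 0 higher after Benjamini-Hochberg adjustment, and with Bonferroni adjustment it gave 0, as did limma.

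Scaled to the reporter genes, 1 gene was higher in Ov GDR minus F1 GDR, where the median was 0.10, and in Ov GDR minus F1 GCs 6 were higher and 6 lower with a median of 0.25. Scaled to the hybridization controls, 54, 26 and 69 were lower and 0, 2 and 0 higher, with medians of -1.14, -0.55 and -1.55. On that scale the signs of genes turned, and those given here are only of named genes called on that scale or as deposited. Other genes turned without a call on either. COX14, COX7B and PC were at background, and ATP5G2 was so on all arrays only with the trp controls counted. For these genes a turn only reflects the amount subtracted from all values of an array. In Ov GDR minus F1 GDR the given signs turned at -0.77 for ATP5G2 and -0.70 for PC. In F1 GDR minus F1 GCs they turned at -0.55 for ATP5G2, -0.58 for COX14 and -0.57 for PC. In Ov GDR minus F1 GCs they turned at -1.25 for UQCR11, -0.85 for NDUFA8, -0.23 for NDUFV3, -1.32 for ATP5G2, -1.01 for COX7B, -1.35 for COX7C, -1.23 for NDUFB3 and -1.15 for NDUFS6. Among the other lists they turned there at -0.0050 for COQ8A, -0.16 for COQ2, -1.28 for PC, -0.17 for VDAC3 and -0.51 for GABPA.

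With each array left out, the number of lower genes ranged from 0 to 15, 0 to 2 and 1 to 22, that of higher genes from 0 to 4, 0 to 6 and 1 to 7, and the medians from -0.49 to -0.16, -0.09 to 0.13 and -0.23 to -0.18. Whether the suffix pairs the arrays cannot be told from 2 arrays per group. The differences between suffixes correlated at -0.15, -0.18 and 0.22 between the groups of the 3 comparisons. As a replicate block the suffix left 0, 0 and 3 genes lower and 0, 0 and 2 higher. Values close to background, such as those of COX10 in Ov GDR, limit the folds, and the cause of these changes was not tested.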
